A study of Danio rerio with 6 samples.

Results

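The genes described here are Sox transcription factor genes of the zebrafish inner ear. They were taken by symbol from the deposited expression table, as the rows named sox1a, sox2, sox3, sox4a, sox9a, sox9b, sox10, sox11a, sox21a or sox21b. Of these 10 symbols, 9 were found among the 31387 genes of the table. No row is named sox4a alone, and 2 rows called sox4a_1 and sox4a_2 are given apart from the members below. Hair cells, which turn sound and movement into nerve signals, were represented by 2 biological samples and the cells around them by 1 sample. The hair cells are labelled GFP-positive and the surrounding cells GFP-negative, and both come from pools of the saccule, utricle and lagena of females 11 to 13 months old. All samples carry the strain label Tg(pou4f3:GAP-GFP)s273t, in which the promoter of the hair cell gene pou4f3 drives a green fluorescent protein. Each sample held 2000 cells, and the labels do not say how many fish gave them or whether the samples shared fish. Library names begin with fish for hair cell replicate 1 and the surrounding cells and with zhc for hair cell replicate 2. The library name of the surrounding cells also holds the letters WT. The labels explain neither the prefixes nor these letters.

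Sox proteins bind DNA through an HMG box and are sorted by sequence into subgroups. The SoxB1 genes sox1a, sox2 and sox3 serve progenitor states in the nervous system and the ear, and in zebrafish Sox2 is known from supporting cells, the non-sensory cells between hair cells. The SoxB2 genes sox21a and sox21b encode relatives that often act against SoxB1 proteins. The SoxC genes sox4a and sox11a act in differentiating cells, and the SoxE genes sox9a, sox9b and sox10 act in the otic placode, in cartilage and in neural crest cells such as glia and pigment cells.

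The 3 samples were sequenced to 31902175 and 102357841 mapped reads for hair cell replicates 1 and 2 and to 34348634 for the surrounding cells. Each sample was read as 2 technical replicates, which are not independent samples and so were averaged and counted as 1 sample. The technical replicates differed by about the sampling noise (p under 0.05 for 5.50% to 5.83% of genes in a chi-square test). Levels are in RPKM, reads scaled by the length of the gene model and by the mapped reads of the library, so that levels of different genes can be compared. All 18 hair cell markers found were called higher in hair cells by limma, beside 17.7% of all genes tested. Most of these markers were under 1 RPKM in the surrounding cells and entered the test only through the hair cells. Their count thus describes the genes and supports nothing further. But 11 of 18 tested supporting cell markers were called higher too, some of them in the same way. In the hair cell replicates the hair cell list summed to 17769 and 16552 RPKM. The supporting cell list summed to 5026 and 6863 RPKM there, so the hair cell samples carried transcripts of both lists. The gene pou4f3 itself reached 152 and 84.0 RPKM in hair cell replicates 1 and 2, against 0.146 RPKM in the surrounding cells. In these bulk samples, fewer cells of a type and less RNA per cell cannot be told apart.

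The hair cell samples carried 3 Sox genes that were almost missing from the surrounding cell sample. The sox21a and sox21b genes of subgroup B2 and the sox1a gene of subgroup B1 together summed to 54.7 and 74.4 RPKM in the hair cell replicates, against 0.440 RPKM in the surrounding cells. The surrounding cells had most of their Sox transcripts from sox10 and sox11a, which were also abundant in the hair cell samples. The sox9a and sox9b genes were low in every sample. The sox2 and sox3 rows held almost no reads in any sample.

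**Figure D1:**
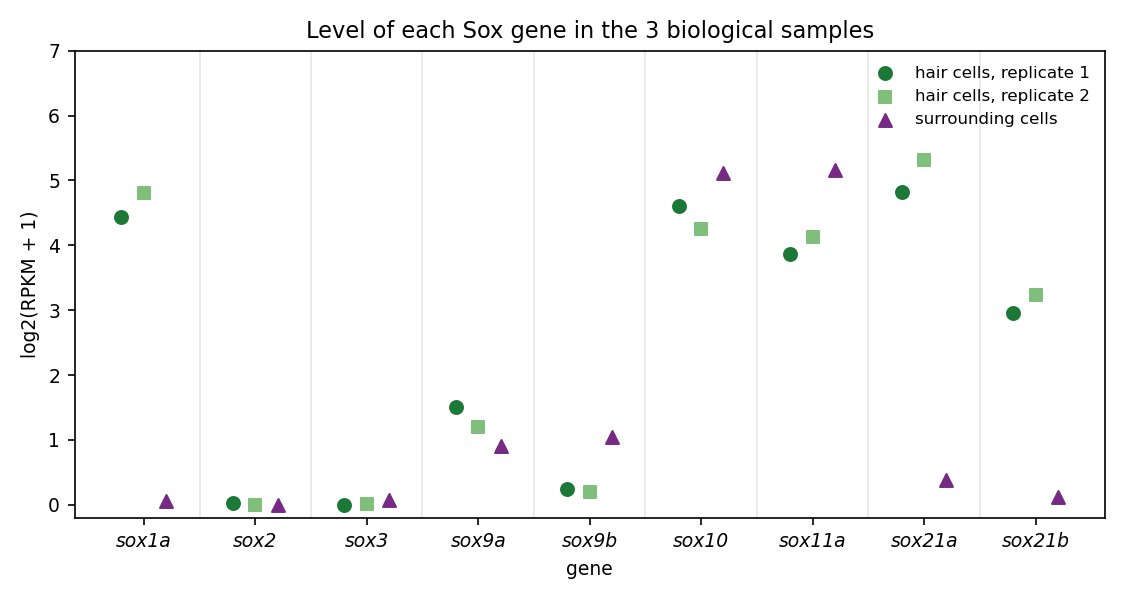
Level of the 9 Sox genes on the log2(RPKM + 1) scale (vertical axis) in hair cell replicate 1, hair cell replicate 2 and the surrounding cells, with each point 1 biological sample. The hair cell points of sox1a, sox21a and sox21b lie far above the surrounding cell point, those of sox10, sox11a and sox9b lie below it, and sox2 and sox3 lie near 0.

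The sox21a gene (ENSDARG00000031664, chromosome 6 in genome build GRCz10, used for all genes) was the most abundant Sox gene of the hair cell samples. It had 27.2 and 38.8 RPKM in hair cell replicates 1 and 2 against 0.309 RPKM in the surrounding cells. Both hair cell values were far above the surrounding cell value, and the gene exceeded 94.4% and 95.5% of detected genes in the hair cell replicates, against 30.9% in the surrounding cells. The difference in log2(RPKM + 1), taken as hair cells minus surrounding cells, was 4.68 (SE 0.32, limma adjusted p = 0.00719), which is the lowest adjusted p that the fit gave. In reads per mapped read, hair cell replicate 1 was 88.0-fold above the surrounding cells (95% interval 50.2 to 171) and replicate 2 was 126-fold above (71.8 to 243). These exact intervals cover counting error only and rest on 12 reads in the surrounding cells.

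The paralog sox21b (ENSDARG00000008540, chromosome 9) showed the same direction at a lower level. It had 6.76 and 8.46 RPKM in the hair cell replicates, against 0.0857 RPKM in the surrounding cells, from 4 reads. The hair cell values lay close together and far from the surrounding cell value. This was a log2 difference of 2.98 (limma SE 0.30, adjusted p = 0.00955). In voom, a limma fit of recovered reads with precision weights, the difference was 6.35 and the adjusted p was 0.0502, so the call was lost there.

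The sox1a gene (ENSDARG00000069866, chromosome 9) had 20.7 and 27.1 RPKM in the hair cell replicates, against 0.0450 RPKM in the surrounding cells. This was the most uneven of the 9 genes, with 1275 and 5345 reads in the hair cell replicates, against 3 reads in the surrounding cells. All 3 reads fell in 1 technical replicate, at 0.0900 RPKM, and the other was at 0. The sox1a log2 difference was 4.56 (limma SE 0.29, adjusted p = 0.00719). The ratio over the surrounding cells was 458 (95% interval 156 to 2222) for hair cell replicate 1 and 598 (204 to 2900) for replicate 2, again with counting error only.

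Of the Sox genes shared by both cell populations, sox11a was lower in hair cells. This SoxC gene (ENSDARG00000077811, chromosome 17) had 13.6 and 16.5 RPKM in the hair cell replicates against 34.6 RPKM in the surrounding cells. Both replicates were below the surrounding cells, but the transcript was still above 89.2% and 90.4% of detected genes in the hair cell replicates. The log2 difference of sox11a was -1.16 (limma SE 0.24, adjusted p = 0.0365). This call was lost with a pseudocount of 5 RPKM (-0.99, adjusted p = 0.0396, past the p threshold but under the size threshold), with no filter on low values (adjusted p = 0.0770) and in technical replicate 1 alone (adjusted p = 0.0513).

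The SoxE gene sox10 (ENSDARG00000077467, chromosome 3), known from the otic vesicle and the neural crest, had 23.4 and 18.1 RPKM in the hair cell replicates, against 33.7 RPKM in the surrounding cells. Both replicates lay below the surrounding cells, but the log2 difference of -0.68 (SE 0.26) was not called (limma adjusted p = 0.124). Its 95% interval ran from -1.46 to 0.09. The sox10 difference was -1.01 with median-ratio scaling, past the size threshold but not the p threshold. In voom it was -0.73, past the p threshold but under the size threshold.

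The sox9 paralogs were both low and lay on opposite sides of the surrounding cells. The sox9a gene (ENSDARG00000003293, chromosome 12) had 1.83 and 1.30 RPKM in the hair cell replicates against 0.875 RPKM in the surrounding cells, and its log2 difference of 0.45 was not called (SE 0.25, limma adjusted p = 0.237). The sox9b gene (ENSDARG00000043923, chromosome 3) had 0.188 and 0.147 RPKM in the hair cell replicates against 1.07 RPKM in the surrounding cells, with 21, 53 and 129 reads. Its log2 difference of -0.83 (SE 0.12) had a limma adjusted p of 0.0169 but missed the required size of 1. With a pseudocount of 0.1 RPKM (-2.13, adjusted p = 0.0344) and in the fit of recovered reads (-2.77, adjusted p = 0.0195) it was called lower. Whether the sox9a and sox9b differences differ from each other was not tested.

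The sox2 gene (ENSDARG00000070913, chromosome 22) had 1 read in hair cell replicate 1 and none in replicate 2 or the surrounding cells, out of 168608650 mapped reads in all. A count of 0 allows up to 3 reads, which is 0.0141 RPKM in hair cell replicate 2 and 0.0422 RPKM in the surrounding cells. The sox3 gene (ENSDARG00000053569, chromosome 14) had 0 and 2 reads in the hair cell replicates, against 3 in the surrounding cells. No difference between cell populations was detectable at this depth for either gene, and neither was tested. Whether the gene model used for counting covers the sox2 transcript of the ear was not tested, so these limits hold for reads assigned to that row and do not show that the cells lacked sox2.

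In all, 7 of the 9 genes reached 1 RPKM in at least 1 sample and were tested. Of these, 3 were called higher, beside 17.7% of all 15803 genes tested, and 1 was called lower, beside 18.0% of all genes. A call needed an adjusted p under 0.05 over all genes and a log2 difference of at least 1. The same genes passed a rule of size with no test, a 2-fold or larger change of RPKM + 1 in each hair cell replicate, which 18.6% of all genes passed as higher and 18.0% as lower. The sox1a, sox9a, sox21a and sox21b genes passed the filter only through hair cells and sox9b only through the surrounding cells, so these counts describe the genes and support nothing further. The test had 1 residual degree of freedom, took the single surrounding cell sample to vary like the hair cell samples, and could not be replaced by an exact permutation test, whose smallest p is 0.333. Higher genes were 49.5% of all calls, and 38.8% with median-ratio scaling, which moved the median of all genes to -0.10 from 0.15 on the log2 scale and turned no Sox member round.

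**Figure D2:**
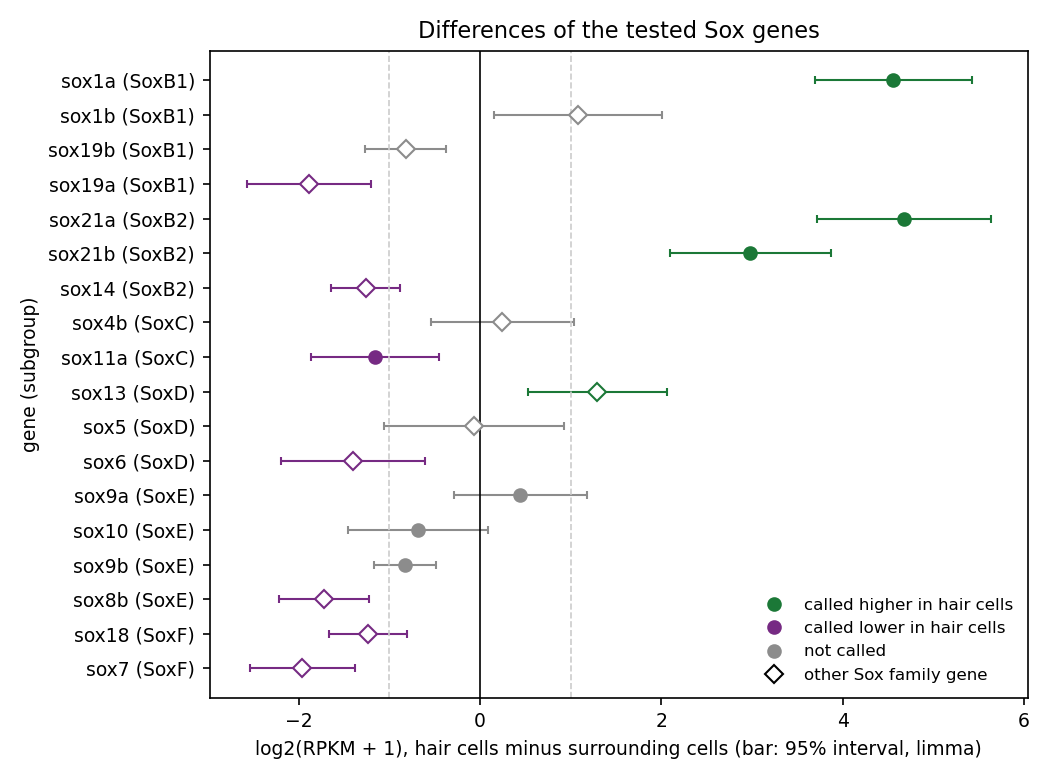
Difference in log2(RPKM + 1), taken as hair cells minus surrounding cells (horizontal axis), for the 18 tested Sox family genes, ordered by subgroup, with 95% limma intervals. Filled circles are the members and open diamonds are other Sox family genes, and dashed lines mark the required size of 1. Members called higher (sox1a 4.56, sox21a 4.68, sox21b 2.98) stand apart on the right, and SoxF genes lie on the left.

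The order of the members was not fixed within the hair cell samples. The sox21a gene led in both replicates, but sox10 at 23.4 RPKM stood above sox1a at 20.7 RPKM in replicate 1, whereas sox1a at 27.1 RPKM stood above sox10 at 18.1 RPKM in replicate 2. The sox1a and sox10 ranges thus overlapped. The sox11a, sox21b, sox9a and sox9b genes followed in that order in both replicates, with no overlap. In the surrounding cells, sox11a and sox10 could not be ranked, since their technical replicates overlapped at 33.9 and 35.3 RPKM for sox11a and 34.7 and 32.7 RPKM for sox10. They were followed at a distance by sox9b and sox9a.

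The hair cell replicates differed by less than 0.50 on the log2(RPKM + 1) scale for each of the 7 genes. The largest gap was that of sox21a, which was higher in replicate 2 by 0.496, and 21.7% of all tested genes were at least as far apart. The sox1a, sox11a and sox21b genes were also higher in replicate 2, by 0.37, 0.26 and 0.28. The sox10, sox9a and sox9b genes differed the other way, with replicate 2 minus replicate 1 at -0.35, -0.30 and -0.05. For every called member the gap between replicates was smaller than the difference from the surrounding cells. That gap enters the test behind each call, so this describes the genes and supports nothing further.

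The rest of the Sox family was examined for comparison. Rows named sox with a number and at most 1 letter numbered 25, of which 18 were tested. Of these, 4 were called higher (22.2%) and 7 lower (38.9%), beside 17.7% and 18.0% of all genes tested. The share called higher was thus near that of all genes. The median log2 difference was -0.75 over the tested family genes and 0.15 over all genes tested. Of the 16 family rows that are not members, 11 were tested, and 1 was called higher (9.09%) and 6 lower (54.5%). The sox7, sox8b, sox14, sox18, sox19a and sox19b genes passed the filter only through the surrounding cells, and sox1b and sox4b only through the hair cells. The family counts and median thus describe the genes and support nothing further.

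Subgroup B1 held opposite patterns. The sox19a gene, a SoxB1 gene of fish, had 0.707 and 0.670 RPKM in the hair cell replicates against 5.26 RPKM in the surrounding cells (log2 difference -1.89, SE 0.23, limma adjusted p = 0.0131). Its paralog sox19b had 0.257 and 0.0878 RPKM in the hair cell replicates against 1.07 RPKM, and its difference of -0.82 was under the required size. The sox1b gene, paralog of sox1a, had 1.71 and 0.808 RPKM in the hair cell replicates against 0.0489 RPKM, a difference of 1.08 that was not called (adjusted p = 0.0726). Within subgroup B2, sox14 had 0.0966 and 0 RPKM in the hair cell replicates against 1.52 RPKM in the surrounding cells and was called lower (-1.26), unlike sox21a and sox21b.

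Among SoxC genes besides sox11a, the rows sox4a_1 and sox4a_2 lie on chromosome 19 and were looked up after it was seen that no row is called sox4a. The first had 3.31 and 2.997 RPKM in the hair cell replicates against 6.63 RPKM in the surrounding cells, and the second had 6.24 and 3.53 against 8.27 RPKM. Neither was called, with differences of -0.88 and -0.70 (limma adjusted p = 0.0805 and 0.251). How reads that fit several gene models were counted is not given in the sources used here, so the split between these rows, and between close paralogs, is uncertain. The sox4b gene was near 1 RPKM or below and not called, and sox11b and sox12 were under 0.2 RPKM in every sample.

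Subgroup D, whose Sox5 and Sox6 proteins work with Sox9 in mouse cartilage, held 1 gene of each outcome. The sox13 gene had 11.8 and 14.3 RPKM in the hair cell replicates against 4.71 RPKM and was called higher (1.29, SE 0.26, limma adjusted p = 0.0340). The sox6 gene had 2.08 and 1.98 RPKM in the hair cell replicates against 7.01 RPKM and was called lower (-1.40, SE 0.27, limma adjusted p = 0.0314). Both calls were lost with no filter on low values (adjusted p = 0.0710 for sox13 and 0.0524 for sox6) and with a pseudocount of 5 RPKM (differences of 0.89 and -0.77). The sox5 gene had 6.54 and 4.44 RPKM in the hair cell replicates, against 5.71 RPKM in the surrounding cells, and its 95% interval ran from -1.06 to 0.92. The SoxE gene sox8b was called lower, with 0.0821 and 0.216 RPKM in the hair cell replicates against 2.79 RPKM, and sox8a had 1 read in all. The SoxF genes sox7 and sox18, which act in blood vessels, were both called lower, with 0.110 and 0.293 RPKM in the hair cell replicates against 3.67 RPKM for sox7 and 0.143 and 0 against 1.52 RPKM for sox18. The endoderm genes sox17 and sox32 were under 0.2 RPKM in every sample.

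**Figure D3:**
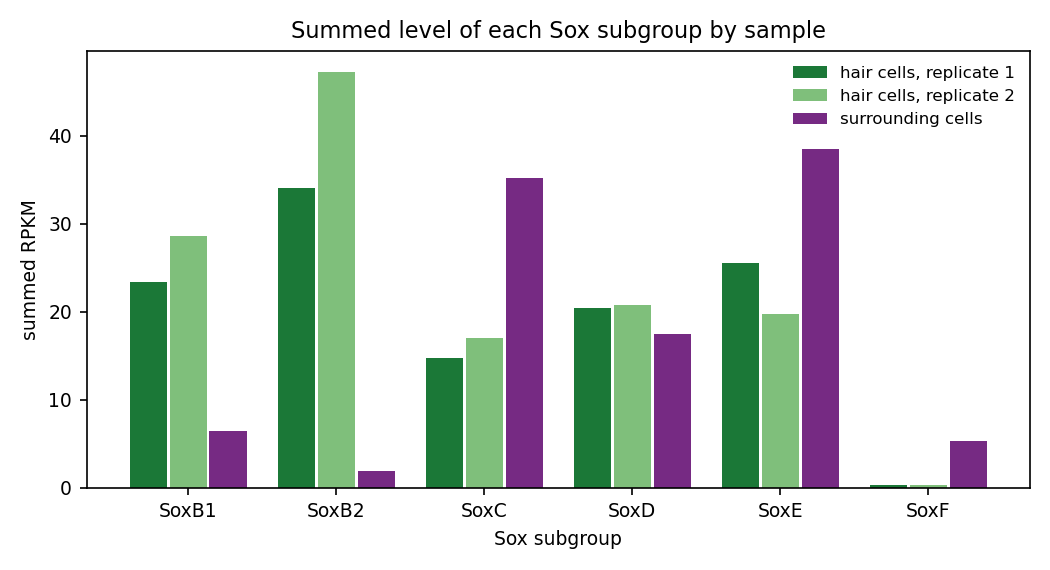
Summed RPKM of the 25 Sox family rows by subgroup, without the rows sox4a_1 and sox4a_2 (vertical axis), in hair cell replicate 1, hair cell replicate 2 and the surrounding cells, 1 bar per sample. SoxB2 sums to 34.1 and 47.3 RPKM in the hair cell replicates, against 1.91 RPKM in the surrounding cells, whereas SoxC and SoxE are higher in the surrounding cells.

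Added up by subgroup, Sox transcripts were of a different make-up in the cell populations at a like total. The 25 family rows summed to 119 and 134 RPKM in the hair cell replicates, against 105 RPKM in the surrounding cells. The sox1a, sox21a and sox21b genes made up 46.2% and 55.6% of this sum in the hair cell replicates, against 0.419% in the surrounding cells. The sox10 and sox11a genes made up 31.2% and 25.9% in the hair cell replicates, against 65.2% in the surrounding cells. Subgroup B1 summed to 23.4 and 28.6 RPKM in the hair cell replicates against 6.47 RPKM, most of it sox1a in hair cells and sox19a in the surrounding cells. Subgroup C summed to 14.8 and 17.0 RPKM in the hair cell replicates against 35.2 RPKM, and subgroup E to 25.5 and 19.8 against 38.4 RPKM. The sum of subgroup C leaves out the rows sox4a_1 and sox4a_2, whose names are outside the family rule, and with them it was 24.3 and 23.5 RPKM in the hair cell replicates against 50.1 RPKM in the surrounding cells. The share of sox10 and sox11a was then 28.9% and 24.7% in the hair cell replicates against 57.1%, and that of sox1a, sox21a and sox21b was 42.7% and 53.0% against 0.367%. Subgroup F summed to 0.365 and 0.320 RPKM in the hair cell replicates against 5.32 RPKM. The sets of sox1a, sox21a and sox21b and of sox10 and sox11a were grouped by their levels in these same samples. Their shares thus describe the genes and support nothing further. The sums and shares were not tested.

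Other regulators of ear development, several of which act beside Sox2 in sensory patches, moved in both directions. Of 33 tested regulators of the ear, 17 were called higher (51.5%) and 8 lower (24.2%), beside 17.7% and 18.0% of all genes tested. The share called lower was thus near that of all genes. The median log2 difference was 1.42, beside 0.15 over all genes tested. The largest positive differences were those of pax2a, sall1a and isl1, transcription factor genes, with 5.30, 5.003 and 4.98. The pax2a gene had 120 and 90.9 RPKM in the hair cell replicates against 1.67 RPKM. The largest negative differences were those of the homeobox genes dlx3b and dlx4b and the growth factor gene fgf8a, with -3.90, -2.64 and -3.41. Many of the regulators called higher, sall1a and isl1 among them, passed the filter only through the hair cells. Some called lower, dlx4b and fgf8a among them, passed only through the surrounding cells. These counts thus describe the genes and support nothing further. The hair cell inducer gene atoh1a had 0.193 and 0.06003 RPKM in the hair cell replicates, against 0 in the surrounding cells. These values rest on 10 reads in each hair cell replicate, and the gene was too low to be tested.

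More supporting cell markers were called higher than lower in the hair cell samples. Of 18 tested supporting cell markers, 11 were called higher (61.1%) in the hair cell samples and 2 lower (11.1%), beside 17.7% and 18.0% of all genes tested. The other 5 were not called. The 19 markers found summed to 5026 and 6863 RPKM in the hair cell replicates against 504 RPKM in the surrounding cells. Much of the hair cell sum was glula, with 2520 and 3953 RPKM against 150 RPKM. Its paralog glulb had 72.5 and 161 RPKM in the hair cell replicates against 170 RPKM and was not called. Some markers called higher passed the filter only through the hair cells. Furthest above the surrounding cells were tectb, a tectorin gene, cx30.3, a connexin gene, and otomp, an otolith matrix gene, with differences of 7.04, 6.81 and 6.38. The lower markers were cx43 and fgfr3, with -2.52 and -2.03. No marker of this list was at 0 in every sample, and 5 genes of it also stand among the ear regulators. The part of these transcripts in the values of sox1a, sox21a and sox21b was not tested.

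Of a list of cartilage and Sox9-type matrix genes, nearly all that were tested were called lower in hair cells. The 20 genes found summed to 96.0 and 83.9 RPKM in the hair cell replicates against 2023 RPKM in the surrounding cells. Of 15 tested, 14 were called lower by limma (93.3%), beside 18.0% of all genes tested, with a median log2 difference of -3.08. They were led by the matrix genes matn4, ucmab and col2a1a, with -8.70, -7.34 and -5.08, and the defining cartilage gene acana, not called, had 0.233 and 0.265 RPKM in the hair cell replicates against 1.06 RPKM. The number called higher was 0, at an unadjusted p under 0.05 and in voom as well. In the surrounding cells these matrix transcripts stood beside sox9a and sox9b levels of 0.875 and 1.07 RPKM. Of 13 tested glia and pigment cell genes known from Sox10, 6 were called lower (46.2%) and 2 higher (15.4%). The share called higher was near the 17.7% of all genes tested. The lower were led by the myelin genes pmp22a and pmp22b and the pigment gene tyrp1b, with -4.02, -2.08 and -2.01, and the higher were kita and egr2a with 1.98 and 1.89. This list summed to 85.1 and 82.1 RPKM in the hair cell replicates against 230 RPKM, and its defining genes were uneven. The myelin gene mbpa had 41.8 and 32.6 RPKM in the hair cell replicates against 35.5 RPKM and was not called, whereas mpz, mitfa and dct were under 1 RPKM everywhere, with mitfa at 0 in hair cell replicate 2 and dct at 0 in hair cell replicate 1. The 16 endothelial genes summed to 3.60 RPKM in each hair cell replicate against 42.4 RPKM. Of 13 tested, 10 were called lower by limma (76.9%), led by fli1a, flt4 and egfl7 with -3.17, -2.80 and -2.30. Of these 13 too, 0 were called higher, at an unadjusted p under 0.05 and in voom as well. The 10 called lower were under 1 RPKM in both hair cell replicates and passed the filter only through the surrounding cells. Their count thus describes the genes and supports nothing further. Some genes called lower in the cartilage and glia lists, among them tyrp1b, passed in the same way. The part of cartilage, glia and vessel cells in the values of sox6, sox8b, sox9b, sox10, sox7 and sox18 was not tested.

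**Figure D4:**
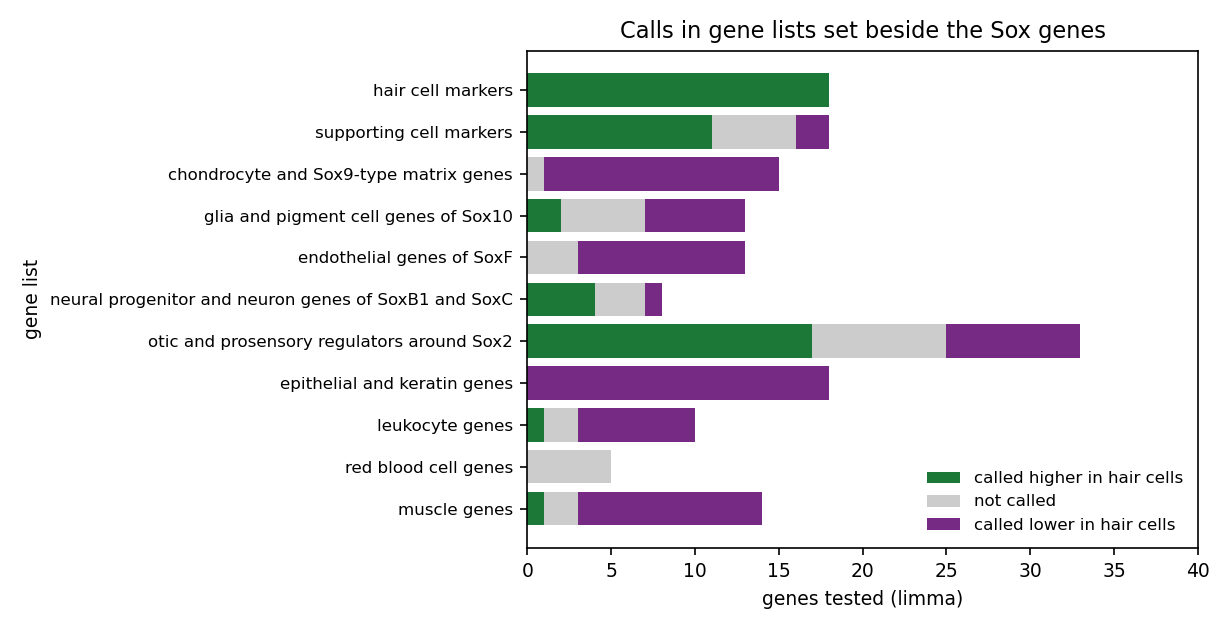
Number of tested genes (horizontal axis) called higher in hair cells, not called, or called lower in hair cells by limma, for 11 gene lists set beside the Sox genes. The ear regulators were called in both directions (17 higher and 8 lower), and 14 of 15 cartilage genes and 18 of 18 epithelial genes were called lower. Some genes of these lists passed the filter of 1 RPKM only through the group where they were higher. Of all genes tested, 17.7% were called higher and 18.0% lower.

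Neural genes known from SoxB1 and SoxC proteins were mostly too low to test. Of 19 found, 8 were tested, with 4 called higher (50%) and 1 lower (12.5%), beside 17.7% and 18.0% of all genes tested. The sncb, fabp7a and isl2b genes differed by 5.78, 4.85 and 3.20 and ntrk2a by -3.13, while the defining neuron genes elavl3 and neurod1 were at or under 0.0643 RPKM in the hair cell replicates, against 0.598 and 0.120 RPKM in the surrounding cells. Of other cell types, 18 of 18 epithelial and keratin genes, 7 of 10 leukocyte genes (70%) and 11 of 14 muscle genes (78.6%) were called lower. Some of the epithelial, leukocyte and muscle genes called lower passed the filter only through the surrounding cells. These counts too describe the genes and support nothing further. Called higher were 1 leukocyte gene (lyz) and 1 muscle gene (desma). Of 5 red blood cell genes, 0 were called by limma, 0 had an unadjusted p under 0.05 and 2 were called lower in voom. The epithelial list summed to 521 and 598 RPKM in the hair cell replicates against 13441 RPKM in the surrounding cells, and the leukocyte list to 80.3 and 65.4 against 1098 RPKM.

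The genes whose levels over the 3 samples were most like those of sox21a were CCDC181, ccdc105 and morn3, at Euclidean distances of 0.174, 0.176 and 0.191 on the log2(RPKM + 1) scale. The CCDC181 gene had 30.0 and 39.6 RPKM in the hair cell replicates against 0.218 RPKM. The genes nearest to sox11a, the member with the lowest difference, were sept2, ppap2d and crb3a at distances of 0.115, 0.130 and 0.188. With 3 samples such likeness is a description and was given no test.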

How the data were processed

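Cells were sorted by GFP, and their total RNA was extracted (Qiagen miRNeasy) and amplified (Clontech SMART-Seq). The authors mapped reads to genome build GRCz10, per the labels, and deposited RPKM values for each technical replicate. Not given in the sources used here are aligner, read counter, gene annotation and strand setting. The 4 columns of averages and standard deviations were not used, and 1 row that repeated another was dropped. Groups came from sample titles.

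Ratios between low RPKM values gave the mapped total of each library as a whole number, and reads within 0.001 of a whole read were recovered for all 26520 genes above 0 (100.0%). The smallest gene length that gives whole reads was used, so reads of some genes may be low by a common factor. Technical replicates were averaged.

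The comparison of hair cells with surrounding cells used log2(RPKM + 1), which understates changes of low genes, by limma 3.58.1 in R 4.3.3 with a variance trend and Benjamini-Hochberg adjustment over 15803 genes of at least 1 RPKM in 1 sample. The code was tested on simulated reads. P-values rest on the spread between the 2 hair cell samples, moderated over genes, and hold no spread between surrounding cell samples. Alternatives changed the pseudocount, the filter, the scaling, the variance model, the technical replicate and the hair cell replicate, or used voom on recovered reads. Named genes were all Sox family rows, at most 3 called genes of each direction per list, defining markers and the 3 genes nearest to the extreme members. The members and the 11 lists were chosen with earlier results of these data known. No sequence of these genes was used here.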

Additional observations from a re-analysis of the deposited data

How the results depend on the processing

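The members called higher numbered 3 in all but 1 alternative, with 2 in voom on recovered reads, where sox21b was not called. The members called lower numbered 1 and moved to 2 with a pseudocount of 0.1 RPKM and with voom, where sox9b joined, and to 0 in technical replicate 1 alone, without a filter and at a pseudocount of 5 RPKM, where sox11a was lost. The log2 difference ranged from 2.51 to 8.84 for sox1a, 2.82 to 6.70 for sox21a and 1.31 to 6.35 for sox21b, lowest with a pseudocount of 5 RPKM and highest with voom, and from -1.48 to -0.99 for sox11a. The sign of every tested Sox gene held under the alternatives run except that of sox5, which was not called and stood at 0.17 without hair cell replicate 2. Over all genes, calls fell to 1603 higher and 1225 lower with a pseudocount of 5 RPKM and to 1464 and 1740 with no filter, and a filter of 5 RPKM gave 1713 lower. For the Sox family, 0 genes were called lower with a pseudocount of 5 RPKM, where sox6, sox7, sox8b, sox14, sox18 and sox19a fell under the required size, and 3 with a filter of 5 RPKM, which tests fewer genes. Why sox11a, sox9b and sox21b crossed the threshold was not tested.

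Leaving out a hair cell replicate left no residual degree of freedom, so it gave values and no test. No paired analysis was possible because the surrounding cells were a single sample. A filter of 5 RPKM left sox9a and sox9b untested. The surrounding cells held 3 to 12 reads of sox1a, sox21a and sox21b, which limits the size of those ratios. Their lower bounds were far above 1 but cover counting error only, with no spread between surrounding cell samples.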
